A study of Neocallimastix californiae and Anaeromyces robustus with 43 samples.

Results

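In Anaeromyces robustus, an anaerobic fungus of the herbivore gut, 76 transcripts stood highest in cultures grown on Avicel, a purified microcrystalline cellulose. They were chosen from 17127 transcripts by their TPM, the deposited transcript level corrected for length and scaled to 1000000 in each library. For each transcript the median TPM on Avicel was set against the highest median TPM of the other 6 substrates, and the score was log2((Avicel + 1) / (highest other + 1)). A transcript was kept at an Avicel median of at least 5 TPM and a score of at least 1. The upper limit of 120 transcripts was not reached. The 76 transcripts made up 0.444% of all A. robustus transcripts and 2.82% of the 2694 that reached 5 TPM on Avicel, and they belonged to 70 loci.

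The study sequenced messenger RNA of 2 gut fungi, N. californiae and A. robustus, in 43 libraries, to see how the carbon source sets the transcripts in use. The 20 libraries of A. robustus, labelled S4, are the ones described here. All came from cultures of about 10 ml of Medium C at 39 °C, taken at the middle of logarithmic growth at a gas pressure of 5 psi or more, and per the labels the groups differed in the energy substrate alone. The substrates were Avicel, glucose, maltose, cellobiose, reed canary grass and switchgrass with 3 libraries each, and corn stover with 2. No untreated or substrate-free culture is among the groups, so glucose served as the reference. The labels name the source as whole organism and do not say whether the replicates were separate cultures, so the p-values below speak only to the scatter among libraries of a substrate, which can be technical.

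Anaerobic gut fungi grow into plant material with rhizoids and secrete large sets of cellulases, hemicellulases and accessory enzymes, many of them held together in cellulosomes through dockerin domains. Cellulose is a chain of glucose units that reaches the cell only after endoglucanases and exo-acting cellulases have cut it, mainly to cellobiose, which beta-glucosidases split to glucose. Grasses offer the same cellulose embedded in hemicellulose, pectin and lignin, whereas glucose, maltose and cellobiose are soluble. The deposited files do not pair the transcript identifiers with gene names, sequences or functions, so which of the 76 transcripts encode such enzymes cannot be stated, and each is named by its locus and version number.

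Library totals ran from 11125041 to 31742828 expected counts apart from maltose replicate 3, which held 1946186. In that library a single transcript outside the group, Locus13069v1rpkm0.51, took 42.5% of the counts, and 30 of the 76 transcripts had none. Avicel replicate 1 also stood apart. It ranked transcripts less like the other Avicel libraries, with a rank correlation over all transcripts of 0.827 with replicate 2 and 0.834 with replicate 3, against 0.909 between replicates 2 and 3. Its 100 highest transcripts held 73.6% of its TPM, compared with 57.8% and 57.5% in replicates 2 and 3. The TMM factor, which corrects the effective library size for such skew, was 0.273 in Avicel replicate 1, 0.774 and 0.773 in replicates 2 and 3, and 0.178 to 1.97 elsewhere. Results below are given with and without these libraries where they rest on them.

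The group was not restricted to Avicel in most of its members. Median TPM on Avicel ran from 5.11 to 5985 with a median of 96.1 over the 76 transcripts, and 36 of them reached 100 TPM and 11 reached 1000. The score ran from 1.04 to 4.09 with a median of 1.79, and the median ratio of the Avicel median to the next substrate was 3.57. That ratio was at least 4 in 35 transcripts, at least 8 in 17 and at least 16 in 3. On each of the other substrates most of the members were present: the median member level was 4.29 TPM on glucose, 5.44 on maltose, 12.6 on cellobiose, 14.3 on reed canary grass, 9.52 on switchgrass and 12.7 on corn stover. Only 4 members lay under 1 TPM on every other substrate. They are therefore described as transcripts highest on Avicel, not as transcripts found on Avicel alone.

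**Figure D1:**
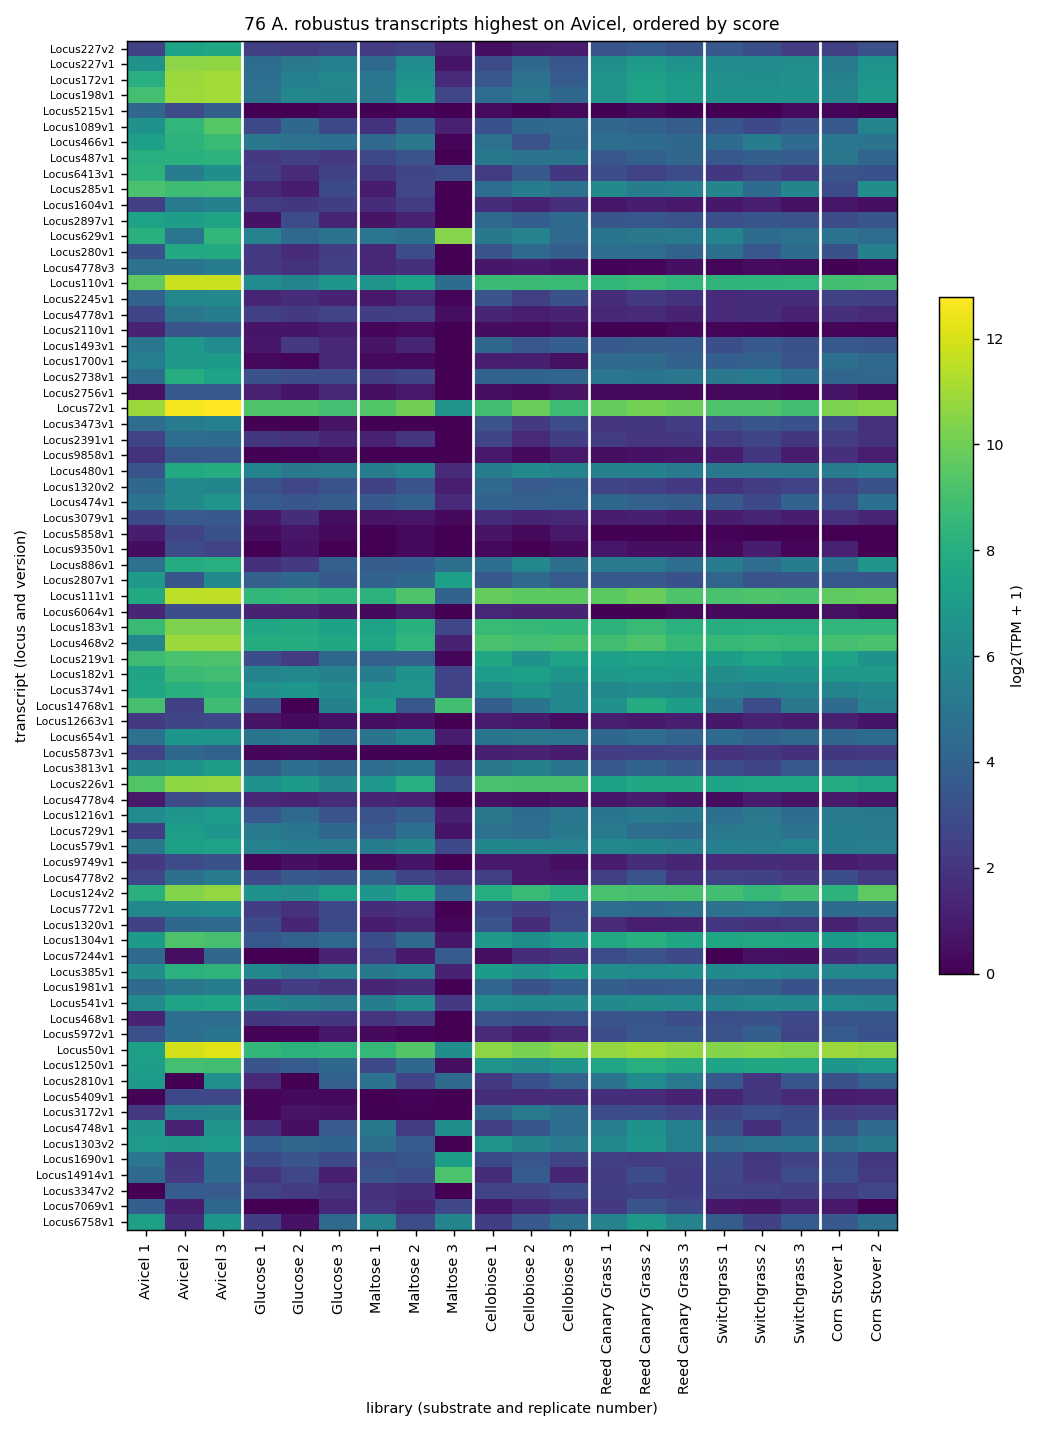
Level of each of the 76 transcripts (rows, ordered by score, highest at the top) in each of the 20 libraries (columns, grouped by substrate), as log2(TPM + 1). The columns of Avicel replicates 2 and 3 are the brightest in most rows, Avicel replicate 1 is dimmer in most, and maltose replicate 3 is dark in many, 30 of the 76 having no count there.

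Summed over the 76 transcripts, the share of library TPM was 1.01%, 3.50% and 3.96% in Avicel replicates 1, 2 and 3, a mean of 2.83% ± 1.59 (SD, n = 3). TMM-scaled CPM (counts scaled by library size and the TMM factor, without length) does not sum to 1000000 per library, so it gives no share. On that scale the members summed to 6.13%, 5.41% and 6.20% of 1000000, a mean of 5.92%. Their share of expected counts was 1.67%, 4.19% and 4.80% in Avicel replicates 1, 2 and 3. In TPM it was 0.279% ± 0.00647 on glucose (SD, n = 3), 0.363% ± 0.0964 on maltose (n = 3), 0.650% ± 0.0185 on cellobiose (n = 3), 0.773% ± 0.106 on reed canary grass (n = 3), 0.578% ± 0.0134 on switchgrass (n = 3) and 0.782% ± 0.0740 on corn stover (n = 2). Each Avicel library lay above all 17 others, whose highest value was 0.895% in reed canary grass replicate 2, but Avicel replicate 1 came close to it. The transcripts were chosen for these values, so no test applies. The glucose libraries, between 0.271% and 0.284%, lay below every other library in TPM, and all cellobiose and grass libraries lay above all maltose libraries. That order was not kept with TMM-scaled CPM, in which the members summed to 2.57% of 1000000 in maltose replicate 3. On that scale the switchgrass libraries, at 0.361% to 0.400%, lay below the glucose libraries, at 0.405% to 0.500%. Of the expected counts of maltose replicate 3 the members held 0.458%. The 11 members at or above 1000 TPM made up 79.5% of the summed TPM of the group in Avicel replicate 2 and 77.1% in replicate 3, but 51.9% in replicate 1. Each library holds the RNA of a whole culture, in which a larger number of cells using a transcript and more of it per cell cannot be told apart.

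**Figure D2:**
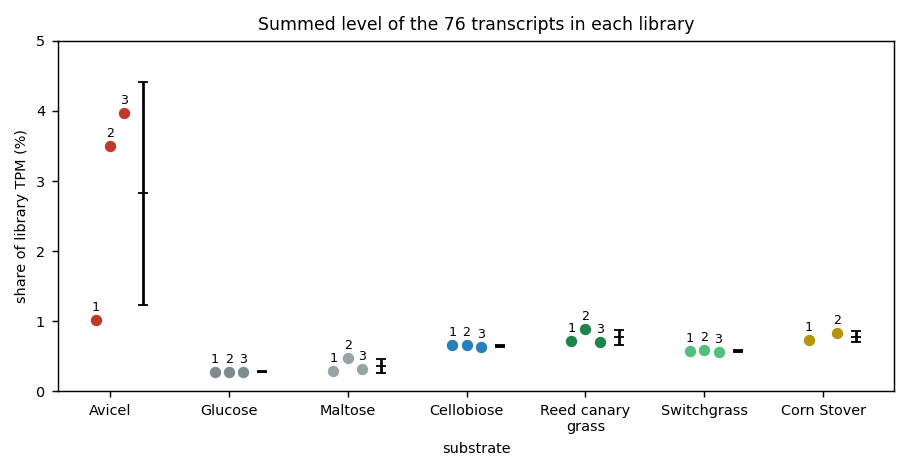
Share of library TPM (%, vertical axis) held by the 76 transcripts in each library, by substrate (horizontal axis). Points are libraries with their replicate number, and the bar beside them gives the mean and SD. Avicel replicates 2 and 3 lie at 3.50% and 3.96%, Avicel replicate 1 at 1.01%, and all other libraries between 0.271% and 0.895%.

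In TPM the Avicel libraries did not carry the group equally. Replicate 1 was the lowest of the 3 in 61 members, replicate 2 in 15 and replicate 3 in none. Set alone against the highest other substrate, replicate 3 scored at least 1 in all 76 members, replicate 2 in 65 and replicate 1 in 29, and the score was below 0 in 0, 10 and 25 of them. The median score was 1.84, 1.79 and 0.47 in the same order. Over the members, the median ratio of replicate 1 to the mean of replicates 2 and 3 was 0.293. In 14 members the ratio was under 0.1, and in 15 it was at or above 1. This gap depends on the scaling. With TPM rescaled by the TMM factors, the median ratio was 0.831, replicate 1 was the lowest in 42 members, and alone it scored at least 1 in 60 and below 0 in 8; with TMM-scaled CPM the ratio was 1.12. Statements below that Avicel replicate 1 was low or lay among other libraries are in TPM. Replicates 2 and 3 lay within 1.5 times of each other in 61 members.

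**Figure D3:**
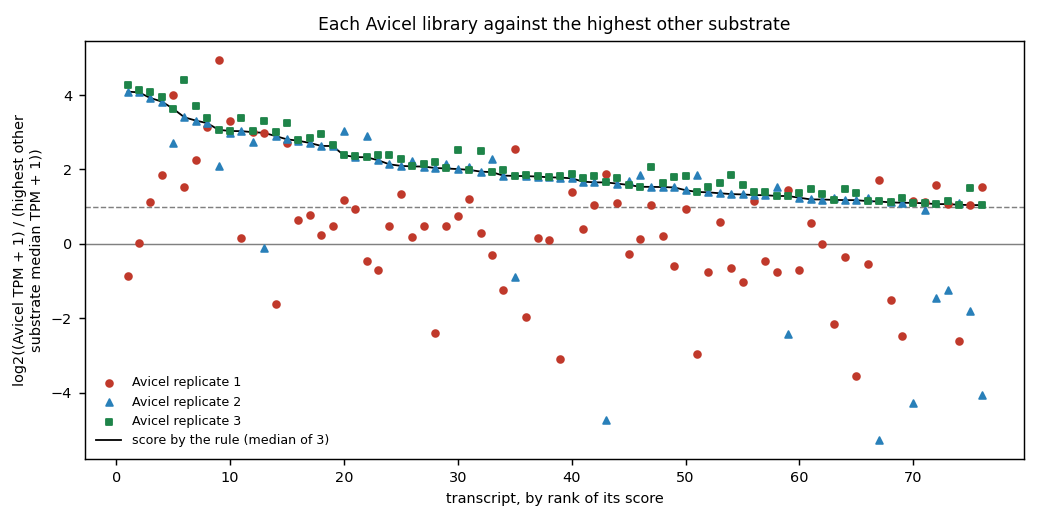
Score of each Avicel library alone (vertical axis, log2 of Avicel TPM + 1 over the highest other substrate median + 1) for the 76 transcripts in order of their score by the rule (horizontal axis). Symbols mark the 3 Avicel replicates, the black line is the score from their median, the dashed line is a score of 1 and the solid grey line a score of 0. Replicate 1 falls below 0 in 25 transcripts and replicate 2 in 10, while replicate 3 stays at or above 1 in all 76.

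In 35 members all 3 Avicel libraries lay above all 17 other libraries. Over the 2694 transcripts at 5 TPM or more on Avicel the same was true of 1.78%, and since the rule used this contrast nothing is read from the difference. In 31 further members Avicel replicates 2 and 3 lay above all others but replicate 1 did not, and in 25 of these replicate 1 was also below the median of the highest other substrate. Of the rest, 4 had replicates 1 and 3 above all others, 2 had replicate 1 alone, and 4 had no Avicel library above the highest single library of another substrate. With TMM-scaled CPM the count with all Avicel libraries above all others was 54, and without Avicel replicate 1 it was 66 in TPM.

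The rule was then applied with 1 replicate number left out of every substrate, and the score was read in the replicate left out. Of 79 transcripts chosen without replicates numbered 1, 16 (20.3%) scored at least 1 in replicate 1, against 1.46% of the 2802 transcripts that reached 5 TPM on Avicel in the libraries used. Their median score there was 0.17. For replicate 2 the count was 42 of 62 (67.7%, against 3.77%), with a median score of 1.58, and for replicate 3 it was 39 of 53 (73.6%, against 3.41%), with a median of 2.20. Replicate 3 was set against 5 other substrates, because corn stover has none. Its maltose value came from the shallow maltose replicate 3 alone. There the median level of the 76 members was 0.68 TPM, against 5.115 and 6.33 in maltose replicates 1 and 2. What this did to the count for replicate 3 was not tested. These lists were chosen anew and shared 60, 46 and 41 transcripts with the 76 members for replicates 1, 2 and 3, so they do not score every member. All of these libraries were also used by the rule for the 76, and the replicates may be technical. The shares are therefore described and not taken as support for the group.

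The highest scores belonged to a set of 4 transcripts from 3 loci. Locus227v2rpkm128.20 had 4.56, 172 and 194 TPM in Avicel replicates 1, 2 and 3, and 0.41 to 12.1 TPM in the other 17 libraries. Its score was 4.09. Avicel replicates 2 and 3 lay far above every other library, and replicate 1 lay among them.

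Locus227v1rpkm858.85, the other version of the locus, had 90.8, 1532 and 1608 TPM on Avicel, 21.9, 34.3 and 45.5 on glucose, 6.68, 18 and 9.59 on cellobiose and 81, 121 and 90.1 on reed canary grass. Locus172v1rpkm1387.23 had 272, 1879 and 2085 TPM on Avicel, 24.9, 44.8 and 60.3 on glucose, 10.3, 27.7 and 12.2 on cellobiose, 48.2 and 109.8 on corn stover, 86.6, 81.6 and 86.5 on switchgrass and 95.7, 156 and 123 on reed canary grass. Locus198v1rpkm1044.30 had 491, 1922 and 2098 TPM on Avicel, 27, 58.7 and 56.3 on glucose, 23.1, 33.7 and 18.1 on cellobiose, 51.6 and 114 on corn stover, 90.3, 92 and 95.3 on switchgrass and 95.6, 163 and 135 on reed canary grass. By their medians these 3 followed the same order of substrates, highest on Avicel, next on the grasses, then on glucose and maltose, and lowest on cellobiose. In Locus172v1 and Locus198v1 all 3 Avicel libraries exceeded every other library, while in Locus227v1 Avicel replicate 1 lay within the range of the reed canary grass libraries. The ratio of Avicel to the next substrate was 17 for Locus227v1, 15.2 for Locus172v1 and 14.3 for Locus198v1.

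Ratios between these transcripts varied far less than their levels over the libraries in which both had at least 20 counts, a likeness seen after their values were known. Locus172v1 to Locus198v1 was 0.445 to 1.07 with a median of 0.921 over 19 libraries. The levels themselves spanned 203-fold and 116-fold over these libraries, the Avicel libraries used by the rule among them. Locus227v1 to Locus172v1 was 0.334 to 0.887 with a median of 0.785. The lowest value of the first ratio came from cellobiose replicate 1 and that of the second from Avicel replicate 1. Expected counts, which are estimates of reads per transcript, were not whole numbers for any of these transcripts. The part of reads divided between transcripts in the steadiness of the ratios was not tested.

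The remaining high scores came from transcripts of several kinds. Locus5215v1rpkm5.38 had 18, 6.79 and 13.9 TPM on Avicel and 0 to 0.29 in all other libraries. With a ratio of 69.5 between the medians it was the member closest to being restricted to Avicel, and it had too few counts elsewhere to be tested among the other substrates. Locus1089v1rpkm78.68 had 90.8, 338 and 673 TPM on Avicel and 1.27 to 51.3 in the other libraries, whose highest was corn stover replicate 2. Locus466v1rpkm260.81 had 149, 312 and 412 TPM on Avicel and 0.14 to 40.2 elsewhere. In each of these 3 the Avicel libraries did not overlap the rest.

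Locus487v1rpkm243.22 had 263, 281 and 307 TPM on Avicel, 3.36, 4.34 and 3.39 on glucose, 34.9, 28.6 and 28.8 on cellobiose and 10.1, 14.7 and 17.9 on reed canary grass. Locus285v1rpkm580.86 had 561, 449 and 467 TPM on Avicel, 1.81, 0.96 and 6.44 on glucose, 23.8, 42.5 and 27.1 on cellobiose and 56.2, 21.3 and 56.3 on switchgrass. In both, all Avicel libraries lay within 1.25 times of each other or closer and far above the rest, and Avicel replicate 1 was not low. Locus6413v1rpkm3.41 had 305, 41.3 and 81.9 TPM on Avicel against 1.99 to 10.7 elsewhere, and here replicate 1 was the highest.

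**Figure D4:**
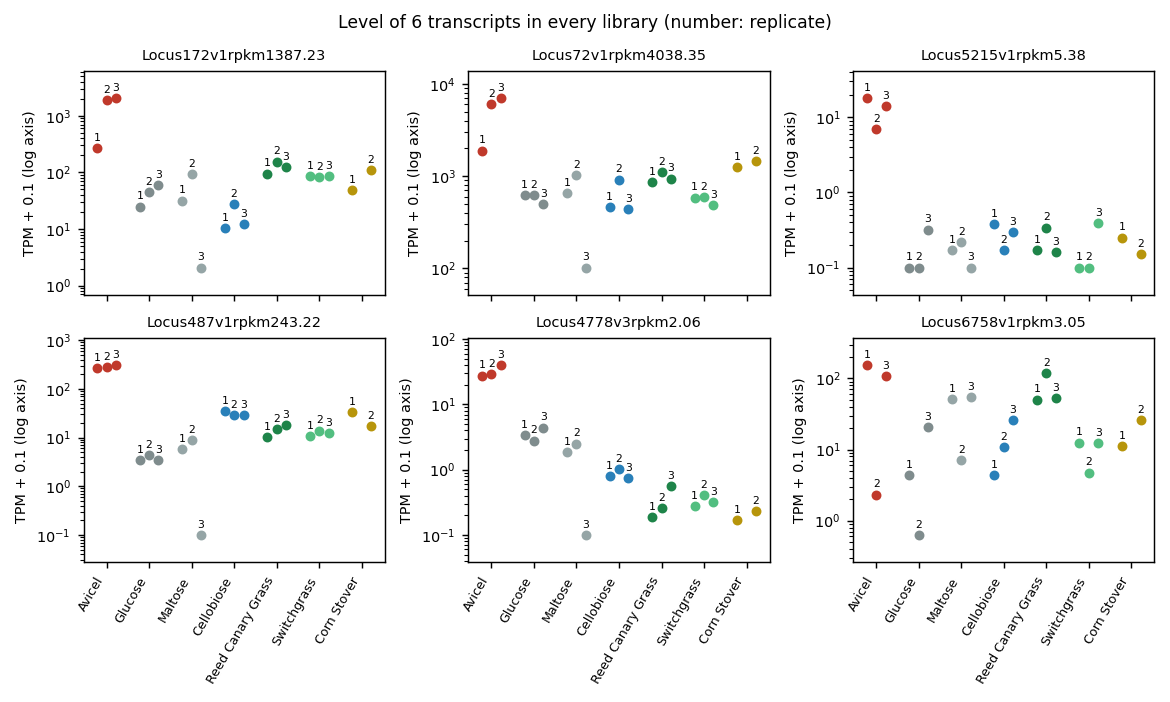
TPM + 0.1 on a log axis (vertical) in every library by substrate (horizontal) for 6 transcripts picked after their values were seen to show the range of patterns. Each point is a library with its replicate number. Locus172v1rpkm1387.23 and Locus72v1rpkm4038.35 are lower in Avicel replicate 1, Locus487v1rpkm243.22 is even over the Avicel libraries, and Locus6758v1rpkm3.05 has 2.22 TPM in Avicel replicate 2 against 154 and 109 in replicates 1 and 3.

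Over the 11 members at or above 1000 TPM on Avicel, which include Locus227v1, Locus172v1 and Locus198v1, the ratio of Avicel to the next substrate ran from 2.26 to 17 with a median of 3.53. Locus72v1rpkm4038.35 had the highest Avicel median, with 1892, 5985 and 7074 TPM on Avicel, 622, 622 and 501 on glucose, 648, 1032 and 102 on maltose, 461, 918 and 441 on cellobiose, 1252 and 1468 on corn stover, 586, 590.3 and 485 on switchgrass and 858, 1098 and 938 on reed canary grass. It was abundant on every substrate, and its Avicel libraries did not overlap the rest. Locus50v1rpkm4817.29 had 151, 4045 and 4627 TPM on Avicel, 351, 299 and 321 on glucose, 1516, 1205 and 1460.0 on cellobiose and 1297 to 2014 on the grasses. Avicel replicate 1 lay below the lowest glucose library in this transcript, so its place in the group rests on replicates 2 and 3.

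Locus110v1rpkm2749.17 had 784, 3427 and 3489 TPM on Avicel, 72.8, 53.4 and 103 on glucose, 413, 416 and 409.6 on cellobiose and 318 to 519.5 on the grasses, without overlap between Avicel and the rest. Locus111v1rpkm2748.20 had 214, 2955 and 3031 TPM on Avicel, 355, 374 and 326 on glucose, 879, 755 and 752 on cellobiose and 549 to 973 on the grasses. In Locus111v1 Avicel replicate 1 was below all glucose libraries. Locus468v2rpkm179.91 followed Locus111v1 closely, with 61.4, 1839 and 1890.3 TPM on Avicel, 237, 239 and 201 on glucose and 554, 496 and 526 on cellobiose. Its ratio to Locus111v1 was 0.288 to 0.700 over 19 libraries, with a median of 0.634.

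Locus226v1rpkm863.31 had 629, 1565 and 1701 TPM on Avicel, 91.2, 125 and 68.3 on glucose, 552, 534 and 542 on cellobiose and 155 to 234 on the grasses. Cellobiose came next after Avicel in this transcript, and its libraries lay above all grass libraries and below Avicel replicate 1. Locus124v2rpkm1103.04 had 274, 1389 and 1671 TPM on Avicel, 90.1, 78.9 and 151 on glucose, 247, 389.6 and 261 on cellobiose, 560.2, 510.3 and 531 on reed canary grass and 311 and 794 on corn stover, and Avicel replicate 1 fell among the cellobiose libraries. Its sister version Locus124v1rpkm2396.51 scored 0.43 and was not a member, with 653, 1127 and 1153 TPM on Avicel.

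The substrate that came next after Avicel differed between members. It was cellobiose in 21 transcripts, corn stover in 21, reed canary grass in 16, switchgrass in 7, glucose in 7 and maltose in 4, so a grass came next in 44. The lowest of the grass medians was above both the glucose and the maltose median in 45 members, and the cellobiose median was above both in 51. These counts are in TPM, and the shares over all transcripts are not given here, so no trait of the members is read from them. In the TMM-scaled tests below, 14 members were called higher and 15 lower on cellobiose than on glucose. On the grasses 21 were called higher and 18 lower than on glucose. Among the transcripts with a grass next, Locus1304v1rpkm60.95 had 123, 604 and 512 TPM on Avicel, 209, 274 and 191 on reed canary grass, 114, 82.9 and 121 on cellobiose and 10.4, 14.4 and 19.9 on glucose. Locus1250v1rpkm65.35 had 143, 496 and 465 TPM on Avicel, 192, 271 and 209 on reed canary grass, 99.6, 75.2 and 101 on cellobiose and 9.28, 12.2 and 18.9 on glucose. In both, the libraries stood in 3 separate steps, glucose lowest, then cellobiose, then reed canary grass, and Avicel replicate 1 lay below the reed canary grass libraries. Their ratio stayed between 0.865 and 1.22 over 19 libraries, with a median of 1.10.

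Glucose came next in a small set with low levels on the grasses. It held all 4 member versions of Locus4778, with Locus1604v1rpkm43.71, Locus2110v1rpkm27.79 and Locus2756v1rpkm17.62, 7 transcripts of 4 loci. In 5 of the 7 every cellobiose and grass library was below the lowest glucose library. The 7 were grouped by having their highest median after Avicel on glucose, so this follows in part from the grouping. The share over all transcripts is not given here, and no trait of the members is read from the count. Locus4778v3rpkm2.06 had 27.5, 29.4 and 39.9 TPM on Avicel, 3.33, 2.69 and 4.33 on glucose, 0.69, 0.93 and 0.65 on cellobiose and 0.07 to 0.46 on the grasses. Locus4778v1rpkm6.48 had 5.46, 32.8 and 41.5 TPM on Avicel, 4.45, 3.47 and 5 on glucose, 1.56, 1.13 and 1.37 on cellobiose and 1.3 to 2.32 on the grasses. Locus4778v2rpkm3.17, the member with the highest glucose median of this set, had 5.57, 25.2 and 36.2 TPM on Avicel and 6.06, 11.1 and 9.36 on glucose, with 15.3, 5.46 and 2.93 on maltose. The versions differed in Avicel replicate 1, which was level with replicate 2 in Locus4778v3 and far below it in the other versions. How the estimates divided reads between versions is not known, so each version's own value is uncertain.

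Locus1604v1 had 4.31, 37.5 and 48.1 TPM on Avicel, 3.72, 3.21 and 4.12 on glucose, 2.2, 1.32 and 2.39 on cellobiose and 0.44 to 1.1 on the grasses. Locus2110v1 had 1.3, 9.27 and 9.55 TPM on Avicel, 0.66, 0.63 and 1.04 on glucose, 0.35, 0.29 and 0.48 on cellobiose and 0.05 to 0.23 on the grasses. In both, every grass library lay below every glucose library, and Avicel replicate 1 was close to the glucose libraries while replicates 2 and 3 stood far above them. Maltose came next in Locus374v1rpkm363.59, which had 183, 278 and 313 TPM on Avicel, 87.6, 97.1 and 4.95 on maltose, 86.1, 104 and 69.2 on glucose and 46 to 74.9 on the grasses.

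Evenness over the Avicel libraries was greatest in Locus1303v2rpkm17.48, with 135, 118 and 132 TPM on Avicel, in Locus487v1, described above, and in Locus772v1rpkm126.82, with 61.9, 69.4 and 73.2 TPM. The highest Avicel library was 1.15, 1.17 and 1.18 times the lowest in these. Locus772v1 had 20.8 to 32 TPM on the grasses, 6.45, 4.25 and 5.96 on cellobiose and 4.12, 2.49 and 6.03 on glucose, and its Avicel libraries did not overlap any other. Locus1303v2 had 96.7, 54.6 and 37.4 TPM on cellobiose and 61.6, 104 and 45.6 on reed canary grass, and its Avicel libraries lay above them by a narrow margin.

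A set of 11 members, Locus6413v1 among them, was high in Avicel replicates 1 and 3 and low in replicate 2, where each stood under 25% of the mean of the other Avicel libraries. Locus14768v1rpkm0.25 had 520.4, 4.35 and 448 TPM on Avicel, 9.35, 0 and 47.8 on glucose, 128, 10.1 and 490.1 on maltose and 86.8, 244 and 142 on reed canary grass. Locus2810v1rpkm17.08 had 125, 0 and 83.2 TPM on Avicel, 1.95, 0 and 14 on glucose and 29, 74.5 and 37.2 on reed canary grass. Locus6758v1rpkm3.05 had 154, 2.22 and 109 TPM on Avicel, 51.3, 6.96 and 54.7 on maltose and 50.4, 120 and 52.4 on reed canary grass. In each, Avicel replicate 2 lay below all reed canary grass libraries. Replicate 2 was below the median of the other 17 libraries in 9 of the 11, and maltose replicate 3 was the highest other library in 6 of them.

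Maltose replicate 3 exceeded all Avicel libraries in the 4 members that had no Avicel library above every other. Locus629v1rpkm170.64 had 280.4, 32 and 351 TPM on Avicel and 31.9, 25.6 and 1415 on maltose, and Locus14914v1rpkm0.22 had 20.1, 3.3 and 21.3 and 9.06, 7.18 and 577 TPM. The others were Locus2807v1rpkm17.09, with 114, 9.79 and 69.5 TPM on Avicel and 15.2, 18.9 and 149 on maltose, and Locus1690v1rpkm40.47, with 31.7, 2.93 and 21.7 and 7.17, 9.82 and 136 TPM. With the mean of the replicates in place of the median, the score of Locus629v1, Locus14914v1 and Locus1690v1 fell below 0. All 4 belong to the 11 above, and the part of this shallow maltose library in their levels was not tested.

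All 11 had an effective length, read from the ratio of counts to TPM, under that of the typical transcript at 1, between 0.0673 and 0.812. Among the 2694 transcripts at 5 TPM or more on Avicel, 34 shared the low value in replicate 2. The ratio of Locus4748v1rpkm6.56 to Locus6758v1, 2 of these members, was 0.543 to 1.52 over 16 libraries. Leaving out Avicel replicate 1, 68 of the 76 members still passed the rule, leaving out replicate 2, 53 did, and leaving out replicate 3, 43 did. Over all members with a value the relative effective length had a median of 0.861 (75 transcripts), against 0.977 over 2676 transcripts at 5 TPM or more on Avicel, and 32% of members against 22.5% lay under 0.5.

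Levels away from Avicel were then compared in the 17 libraries of the other 6 substrates, whose differences the choice of members did not rest on apart from the limit it sets on their highest median. The test was edgeR's quasi-likelihood test on TMM-scaled expected counts with Benjamini-Hochberg adjustment over all 10234 transcripts tested, and calls were made where the adjusted p was under 0.05. Of the 76 members 74 could be tested; Locus5215v1 and Locus9350v1rpkm1.33 had too few counts. A log2 fold change on this scale need not have the size of the TPM ratio, because the TMM factors of the glucose libraries were 0.697 to 0.938 and those of the cellobiose and grass libraries 1.09 to 1.77. Some difference among the 6 substrates was called by edgeR in 56 of the 74 tested members (75.7%), against 57.3% of all transcripts tested. What set these shares apart was not tested.

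On maltose against glucose no member was called in edgeR's test, where 0.00977% of all transcripts were. At an unadjusted p under 0.05 there were 22 members, and DESeq2 called 15 members, 14 higher on maltose and 1 lower. The matching shares of all transcripts, also for the scaling by library size below, are not given here. None of these counts is therefore read as a trait of the members. The median log2 difference was 0.49 in the members and -0.45 over all transcripts tested. Maltose replicate 3, with few counts, is 1 of the 3 maltose libraries here, and without it edgeR likewise called 0. With library size alone as scaling, the members' median was -0.32 beside -1.25 over all transcripts, and 5 members were called higher and 4 lower. The smallest unadjusted p among members belonged to Locus50v1, which had 362, 666 and 75.8 TPM on maltose and 351, 299 and 321 on glucose, a log2 difference of 1.28 ± 0.26 (SE) with an adjusted p of 0.0846 in edgeR's test.

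On cellobiose against glucose edgeR's test called 29 of the 74 tested members (39.2%), against 31% of all transcripts. Of the tested members 14 (18.9%) were higher on cellobiose and 15 (20.3%) lower, against 19.7% and 11.3% of all transcripts. The lower calls included all 4 versions of Locus4778 and the 2 of Locus227, so they did not all come from separate loci. Counts summed per locus gave 15 loci higher and 12 lower. The matching shares of all loci are not given here, so no excess of lower members is read from these counts. The median log2 difference was -0.17 in the members and 0.16 over all transcripts tested. With DESeq2 the split was 16 higher and 14 lower, and with library size alone as scaling, which moved the median of all transcripts from 0.16 to 1.01, it was 20 and 8.

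Of the members higher on cellobiose, Locus3172v1rpkm13.83 had 19.1, 37.7 and 23.3 TPM there, 0.17, 0.58 and 0.5 on glucose and 3.38, 51.2 and 56.1 on Avicel. The log2 difference was 4.96 ± 0.50 (SE), with an adjusted p of 4.24e-06 in edgeR's test, and the libraries did not overlap. Locus5409v1rpkm4.98 had 2.15, 1.92 and 2.12 TPM on cellobiose, 0.11, 0.26 and 0.22 on glucose and 0.09, 5.76 and 5.77 on Avicel, a log2 difference of 2.26 ± 0.40 (SE; edgeR adjusted p = 0.000499). Its Avicel replicate 1 lay below all glucose libraries. Locus487v1 rose by 1.97 ± 0.42 (SE; edgeR adjusted p = 0.00218), Locus1304v1 by 1.65 ± 0.41 (0.00524), and Locus110v1 by 1.33 ± 0.35 (0.00827).

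Of the members lower on cellobiose, Locus227v2 had 0.41, 0.91 and 0.95 TPM there against 4.35, 3.7 and 5.03 on glucose, a log2 difference of -3.67 ± 0.49 (SE; edgeR adjusted p = 4.89e-05). Locus227v1 differed by -2.61 ± 0.64 (SE; edgeR adjusted p = 0.00579), Locus172v1 by -2.39 ± 0.60 (0.00671) and Locus198v1 by -1.96 ± 0.51 (0.00695). The 4 transcripts with the highest scores were thus all lower on cellobiose, the soluble sugar released from cellulose, than on glucose, though with library size alone as scaling the calls of Locus172v1 and Locus198v1 were lost. Locus4778v1 fell by 2.81 ± 0.33 and Locus4778v3 fell by 3.25 ± 0.46 on the log2 scale (edgeR adjusted p = 1.27e-05 and 8.16e-05). The calls of Locus72v1 (edgeR adjusted p = 0.0499) and Locus374v1 (adjusted p = 0.0437) lay near the threshold and were lost under most alternatives.

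The mean of the grasses against glucose gave 39 members called by edgeR (52.7% of the 74 tested), against 54.6% of all transcripts. Higher on the grasses were 21 members (28.4%) and lower 18 (24.3%), against 30.4% and 24.2% of all transcripts. The median log2 difference was 0.10 in the members and 0.08 over all transcripts, so both the count and the median of the members were near the background. DESeq2 gave 27 higher and 14 lower, and DESeq2 size factors in edgeR 26 and 14. Library size alone, with a median over all transcripts of 0.85, gave 23 and 10. The matching shares of all transcripts are not given here, so these alternative splits are not read as a trait of the members.

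Locus5873v1rpkm4.14 had 2.37 to 4.55 TPM on the grasses, 0.12, 0.21 and 0.16 on glucose and 4.9, 18.5 and 14.6 on Avicel, a log2 difference of 3.41 ± 0.37 between the grasses and glucose (SE; edgeR adjusted p = 9.73e-07). Locus1304v1 differed by 2.63 ± 0.39 (SE; edgeR adjusted p = 1.92e-05) and Locus1250v1 by 2.65 ± 0.42 (3.55e-05). None of these 3 had a glucose library that reached the lowest grass library. Locus50v1 rose by 1.40 ± 0.23 (SE; edgeR adjusted p = 5.73e-05). In the other direction Locus4778v3 fell by 5.16 ± 0.39, Locus2110v1 fell by 3.79 ± 0.36 and Locus1604v1 fell by 3.29 ± 0.32 on the log2 scale (edgeR adjusted p = 3.93e-08, 3.3e-07 and 3.89e-07). All 7 members with glucose next after Avicel were called lower on cellobiose and on the grasses, which follows in part from how they were grouped.

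A few members outside the naming rule, chosen after their values were seen, showed the levels on Avicel and on the grasses together above those on all soluble sugars. Locus1700v1rpkm40.12 had 45.5, 121 and 124 TPM on Avicel, 9.46 to 25.6 on the grasses, 1.14, 1.16 and 0.51 on cellobiose, 0.19, 0.13 and 1.69 on glucose and 0.27, 0.19 and 0 on maltose. It was 3.57 ± 0.75 higher on the grasses than on glucose and 4.33 ± 0.78 higher than on cellobiose (log2, SE; edgeR adjusted p = 0.000799 and 0.00227), and no library of a soluble sugar reached the lowest grass library. Locus5972v1rpkm3.99 had 7.69, 24.1 and 30 TPM on Avicel, 5.3 to 13.8 on the grasses, 1.88, 0.95 and 1.72 on cellobiose and 0.09, 0.09 and 0.72 on glucose, with log2 differences of 3.91 ± 0.62 and 2.85 ± 0.54 (SE; edgeR adjusted p = 5.44e-05 and 0.00287).

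Other members, likewise chosen afterwards, stood high on Avicel, cellobiose and the grasses and low on glucose and maltose. Locus219v1rpkm923.89 had 428, 556 and 598 TPM on Avicel, 202, 90.1 and 163 on cellobiose, 92.7 to 181 on the grasses, 7.45, 3.65 and 18.5 on glucose and 14, 14 and 0.18 on maltose. Its log2 difference from glucose was 2.67 ± 0.63 on cellobiose and 2.86 ± 0.59 on the grasses (SE; edgeR adjusted p = 0.00449 and 0.000542). Locus3473v1rpkm11.89 had 22.6, 39 and 44.3 TPM on Avicel, 8.67, 3.31 and 7.16 on cellobiose, 2.5 to 9.82 on the grasses and 0.05, 0 and 0.61 on glucose, with log2 differences of 3.50 ± 0.81 and 3.38 ± 0.75 (SE; edgeR adjusted p = 0.00507 and 0.00151). In both transcripts all cellobiose and grass libraries lay above all glucose and maltose libraries and below all Avicel libraries.

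The cellobiose and grass comparisons share the glucose libraries, so their calls are set side by side without a test. Among members, 11 were higher and 10 lower in both, 3 and 5 were called on cellobiose alone, 10 and 8 on the grasses alone, and 27 in neither. No member was called in opposite directions. The same counts over all transcripts tested are not given here, so neither the agreement nor its extent is read as a trait of the members.

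The grasses against cellobiose gave 20 members called by edgeR (27.0% of the 74 tested), against 14.8% of all transcripts. Higher on the grasses were 9 members (12.2%) and lower 11 (14.9%), against 8.98% and 5.82% of all transcripts. Without cellobiose replicate 3, 13 members were called in all. The median log2 difference was 0.08 in the members and -0.05 over all transcripts. DESeq2 gave 18 higher and 11 lower, and DESeq2 size factors in edgeR 15 and 11. Counts summed per locus gave 11 loci higher and 10 lower. The shares of all transcripts under these alternatives, and without cellobiose replicate 3, are not given here. These alternative counts are therefore not read as a trait of the members. Locus227v2 had 3.95 to 12.1 TPM on the grasses against 0.41, 0.91 and 0.95 on cellobiose, a log2 difference of 3.55 ± 0.45 (SE; edgeR adjusted p = 3.08e-05), with no overlap of libraries.

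Others higher on the grasses than on cellobiose were Locus772v1 at 2.30 ± 0.38 (SE; edgeR adjusted p = 0.000644), Locus5873v1 at 1.63 ± 0.28 (0.00082), Locus172v1 at 2.51 ± 0.56 (0.00717) and Locus198v1 at 2.08 ± 0.46 (0.00654). The calls of Locus172v1 and Locus198v1 were lost without cellobiose replicate 1 or 3. Lower on the grasses was Locus6064v1rpkm3.85, with 0.06 to 0.48 TPM on the grasses, 1.65, 1.35 and 1.33 on cellobiose and 1.61, 7.24 and 7.26 on Avicel, and it fell by 2.60 ± 0.34 (SE; edgeR adjusted p = 5.01e-05). Locus3172v1 fell by 2.21 ± 0.32 (SE; edgeR adjusted p = 0.000131). Locus5858v1rpkm4.17 had 0.96, 5.11 and 7.94 TPM on Avicel, 0.59, 0.27 and 0.83 on cellobiose and 0 to 0.1 on the grasses, and was called lower on the grasses with an adjusted p of 0.000727 in edgeR's test, though both corn stover libraries were listed at 0, so no fold is given.

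**Figure D5:**
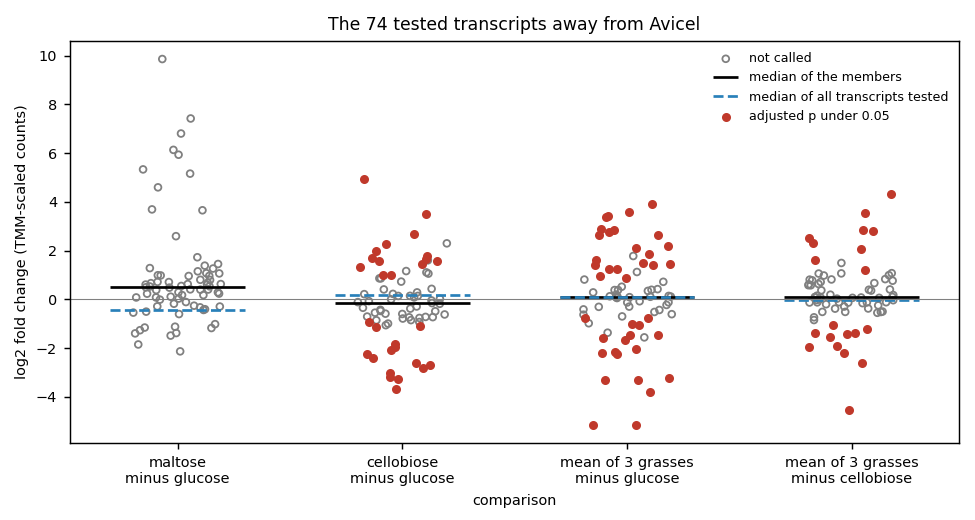
Log2 fold change of TMM-scaled counts (vertical axis) of the 74 tested transcripts in 4 comparisons without Avicel (horizontal axis). Filled points have an adjusted p under 0.05 in edgeR's test, open points do not, the black line is the median of these transcripts and the dashed blue line the median of all 10234 tested. Filled points number 0, 29, 39 and 20 from left to right and lie on both sides of 0.

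Expected counts were not whole (tolerance 1e-09) in at least 1 library for 46 of the 76 members, and 49.7% of member values were not whole. These were all 14 members whose locus has more than 1 version in the table and 32 of the 62 whose locus has 1. All members whose ratios to each other are given above had such values, and the part of divided reads in those ratios was not tested. In 4 loci, Locus4778, Locus227, Locus1320 and Locus468, more than 1 version was a member, and 8 member loci have more than 1 version in the table. Locus1320v2rpkm20.03 had 18.9, 62.3 and 57.3 TPM on Avicel and 19.4, 11.9 and 13.3 on cellobiose. Locus1320v1rpkm60.04 had 4.79, 18.6 and 19.9 TPM on Avicel and 9.24, 2.1 and 6.9 on cellobiose. Locus468v1rpkm257.51 had 1.33, 23.2 and 22.6 TPM on Avicel, far below Locus468v2. Avicel replicate 1 was the lowest Avicel library in both versions of Locus1320 and of Locus468.

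At the edge of the rule, the last members were Locus3347v2rpkm1.24_PRE with a score of 1.05, Locus7069v1rpkm2.73 with 1.04 and Locus6758v1 with 1.04. Locus3347v2 was listed at 0, 12 and 11.6 TPM in the Avicel libraries and Locus7069v1 at 13, 0.94 and 18.1, so in each of them 1 Avicel library was far below the others. The first transcripts outside were Locus13258v1rpkm0.48 with 0.998, Locus331v1rpkm455.33 with 0.996 and Locus4774v1rpkm6.49 with 0.991. Locus331v1rpkm455.33 stood at a median of 486 TPM on Avicel and 243 on its next substrate, so abundant transcripts lie on both sides of the limit. Locus7482v1rpkm2.35 passed the score and missed the minimum level, at 4.74 TPM on Avicel, while Locus5858v1 was the lowest inside at 5.11.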

How the data were processed

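Transcript abundance was measured by stranded mRNA sequencing (RNeasy Mini extraction, Illumina TruSeq Stranded mRNA, per the labels' protocols). The authors made the deposited expected counts, estimates of reads per transcript, with RSEM, per the submitters' processing notes. The TPM values deposited by the authors are corrected for transcript length and sum to 1000000 per library. The aligner, the reference transcripts and any read filter were not given in the sources used here.

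Members were found from TPM as stated above. The members and lists were chosen with earlier results of these data known, and Avicel contrasts are described without a test. Expected counts were rounded to whole numbers. Transcripts were kept by filterByExpr (minimum count 10, minimum total 15) in edgeR 4.0.16, R 4.3.3, and a robust quasi-likelihood model with TMM scaling and 1 mean per substrate was fitted to the 17 libraries without Avicel, so that Avicel values entered neither the filter nor the fit (biological coefficient of variation 0.338). The script was tested on simulated data. The grass comparisons use the mean of 3 grasses. Relative effective length is counts over TPM, scaled to the typical transcript, for transcripts with at least 50 counts.

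Transcripts were named by rule: the 10 highest scores, the 10 highest Avicel medians, the 3 on each side of the score limit, up to 3 called members with the smallest adjusted p per comparison and direction, versions of up to 3 loci with several member versions, the 3 most and 3 least even over the Avicel libraries, and the highest member per next substrate. Others were chosen after their values were seen. Alternatives were DESeq2 1.42.0, its size factors in edgeR, library size alone, no count filter, all 20 libraries, counts summed per locus, a replicate block, other pseudocounts, minima and scalings of the rule, and each library left out. Scaling the Avicel libraries by TMM, as rescaled TPM or as CPM, was an alternative chosen after seeing the data.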

Additional observations from a re-analysis of the deposited data

How the results depend on the processing

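Of 1564 alternative values for 68 called tests of named members, 1493 stayed called, 71 lost the call and 0 reversed, and 44 tests kept their call under every alternative. Of 600 alternative scores of 50 named members 562 moved by less than the replicate spread, 35 by more and 3 reversed. That spread is the SD of the score over the Avicel libraries. It was wide in members such as Locus227v2, with scores of -0.87, 4.09 and 4.26, so the 562 do not show that scores were stable. The reversed scores came from mean TPM in place of the median, with -1.15 for Locus629v1rpkm170.64, -3.64 for Locus14914v1rpkm0.22 and -1.40 for Locus1690v1rpkm40.47, in each of which maltose replicate 3 exceeded all Avicel libraries. Calls of members on maltose against glucose went from 0 to 9 with library size alone and 15 with DESeq2, and ran from 0 to 4 with each library left out (4 without glucose replicate 2, 1 without maltose replicate 1). Leaving out libraries gave 13 to 25 members called for the grasses against cellobiose (13 without cellobiose replicate 3), 22 to 33 for cellobiose against glucose, 30 to 45 for the grasses against glucose and 51 to 62 for any difference. The shares of all transcripts called in these fits are not given here, so no trait of the members is read from these counts. Membership fell to 49, all of them shared, with a pseudocount of 10. With TMM-scaled CPM 233 transcripts passed, and the 120 taken held 62 of the 76; with TPM rescaled by TMM factors 212 passed, and the 120 taken held 66. Leaving out libraries gave 54 to 84 members, of which 43 to 76 were shared (43 without Avicel replicate 3). Members with all Avicel libraries above all others numbered 54 with TMM-scaled CPM and 35 to 66 with a library left out (66 without Avicel replicate 1). Their mean share on Avicel was 5.92% with TMM-scaled CPM and 2.26% to 3.73% with a library left out. In an alternative chosen after seeing the data, the median ratio of Avicel replicate 1 to the mean of replicates 2 and 3 went from 0.293 to 0.831 with TPM rescaled by TMM factors and to 1.12 with TMM-scaled CPM. The cause of these shifts was not tested.

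With the replicate number as a block, edgeR called 0, 29, 38 and 20 members in the 4 comparisons and 55 for any difference. The shares of all transcripts called in this fit are likewise not given here. Of 40 same-numbered pairs of libraries, 12 had deviations that correlated above 0.1 (r from -0.263 to 0.375), so not every pair passed that bar and the numbers were not treated as pairing the samples. As a hint from the data and not the design, 10 of 17 libraries correlated best with their own number. Groups of 2 or 3 libraries and the shallow maltose replicate 3 limit what small differences can be seen.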
